A study of Mus musculus with 2 samples.

Results

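The 10 genes described here encode the coat proteins and the lipase machinery of the lipid droplet: the perilipins Plin1, Plin2, Plin3, Plin4 and Plin5, the droplet fusion proteins Cidea and Cidec, and the triglyceride lipase Pnpla2 with its activator Abhd5 and its inhibitor G0s2. They are 10 of the 55536 genes in the deposited gene tables and were selected on their level in the heart and on the contrast in ratio between hearts of the heart form Plin5 and the fat-cell forms Plin1 and Cidec. That contrast is therefore given as a description. The samples are heart tissue of 2 males of strain B6CASTF1/J, an F1 hybrid mouse, at 25 days of age, with no treatment named, and total RNA was sequenced from each as 1 library starting from 300 ng. They are called heart 1 and heart 2 here after the replicate numbers in the labels, which name bank animals 3 and 4 but give both the same donor identifier. With 1 group of 2 animals there is no comparison between groups and no test, and each level is given for both hearts with the mean and SD (n = 2).

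A lipid droplet is a core of triglyceride and sterol ester under a single layer of phospholipid. Perilipins coat that surface and control the access of lipases. Plin1 coats the large droplets of fat cells, Plin5 is the form of muscle, heart and other tissues that burn fatty acids, where it also tethers droplets to mitochondria, and Plin2 and Plin3 are found in most cells. Pnpla2 encodes adipose triglyceride lipase (ATGL), which cuts the first fatty acid from triglyceride. Abhd5 (CGI-58) activates it and G0s2 binds and inhibits it. In the heart, fatty acids released by ATGL fuel beta-oxidation and serve as ligands of the nuclear receptor PPAR-alpha.

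The DNA just upstream of the heart form and of both fat-cell forms is shown because the report contrasts their levels. Each stretch is the part of the RefSeq promoter window (GRCm38.p6, which runs from 250 bases before to 50 after the RefSeq start) that lies upstream of every GENCODE M21 transcript start of the gene, read 5′ to 3′ on the minus strand. Plin5 is chr17:56117597-56117798, Plin1 is chr7:79732904-79733026 and Cidec is chr6:113435761-113436010. Capitals mark GGGCGG (the GC box), CCAAT or their reverse complements.
Plin5: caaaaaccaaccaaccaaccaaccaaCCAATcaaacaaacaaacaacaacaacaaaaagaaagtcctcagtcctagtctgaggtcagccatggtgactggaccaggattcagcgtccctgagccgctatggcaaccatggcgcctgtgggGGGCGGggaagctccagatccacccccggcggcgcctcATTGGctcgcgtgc
Plin1: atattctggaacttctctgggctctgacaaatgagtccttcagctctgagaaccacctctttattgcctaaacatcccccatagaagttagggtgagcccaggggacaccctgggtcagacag
Cidec: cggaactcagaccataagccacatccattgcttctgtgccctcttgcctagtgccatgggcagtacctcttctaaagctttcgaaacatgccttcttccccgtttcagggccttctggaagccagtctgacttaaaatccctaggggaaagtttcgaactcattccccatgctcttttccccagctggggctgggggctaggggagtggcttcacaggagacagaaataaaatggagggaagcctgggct
The Plin5 stretch held 1 GC box and 2 CCAAT matches, whereas none of the letters searched was found upstream of Plin1 or Cidec. A promoter window was given for 9 of the 10 genes, all but Cidea. These 9 genes had 11 windows, with 2 each for Plin5 and Cidec. Over both strands of the 300 bases, GGGCGG was in 7 of the 11 windows, against 35.7% of all 32851 windows. Those 7 belong to 6 genes (Abhd5, G0s2, Plin2, Plin3, Plin5 and Pnpla2). CCAAT was in 4 of the 11 (Plin2, Plin3, Plin4 and Plin5), against 37.4% of all windows. TATAAA was in 0 of the 11, against 13.6%. A pair of AGGTCA hexamers 1 base apart, the letters that PPAR dimers are known to bind, was searched with at most 2 mismatches and was in 3.86% of all windows. It was in 1 of the 11 windows of these genes, that of Plin2. The CG dinucleotide was found 16 times in each of the 2 Plin5 windows, 2 times in the Plin1 window and 6 and 7 times in the 2 Cidec windows, with a median of 7 over all windows. The other genes ranged from 7 (Plin4) to 32 (Abhd5). These matches describe the letters only.

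Gene counts summed to 38253821 in heart 1 and 40655101 in heart 2. The heart-muscle markers were high in both hearts, with Myh6, the main adult ventricular myosin of the mouse, at 8807 and 8307 TPM, and the summed level of the 10 markers was 40902 TPM in heart 1 and 44024 in heart 2. TPM is a level per length of transcript with the same total in each library, so levels of different genes can be set side by side. Ratios between the hearts come from the estimated counts after TMM scaling and are heart 2 over heart 1 on the log2 scale, with a 95% interval for counting error only.

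The heart form of perilipin was above the fat-cell forms in both hearts, and the fat-cell forms were the members whose level differed most between the hearts. Plin5 stood at 61.9 TPM in heart 1 and 59.4 in heart 2 (60.7 ± 1.75, SD, n = 2). Plin1 stood at 13.96 and 3.79 TPM, and Cidec at 17.3 and 3.22. Plin5 was thus 4.43 times Plin1 in heart 1 and 15.7 times in heart 2, a mean log2 ratio of 3.04 ± 1.27. It was 3.57 and 18.5 times Cidec, a mean log2 ratio of 3.00 ± 1.65. By the second quantification, Plin5 over Cidec was smaller on the log2 scale, at 1.23 in heart 1 and 3.83 in heart 2, and that over Plin1 was 1.87 and 3.71. In this bulk tissue, fewer cells of a type and less RNA per cell cannot be told apart.

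**Figure D1:**
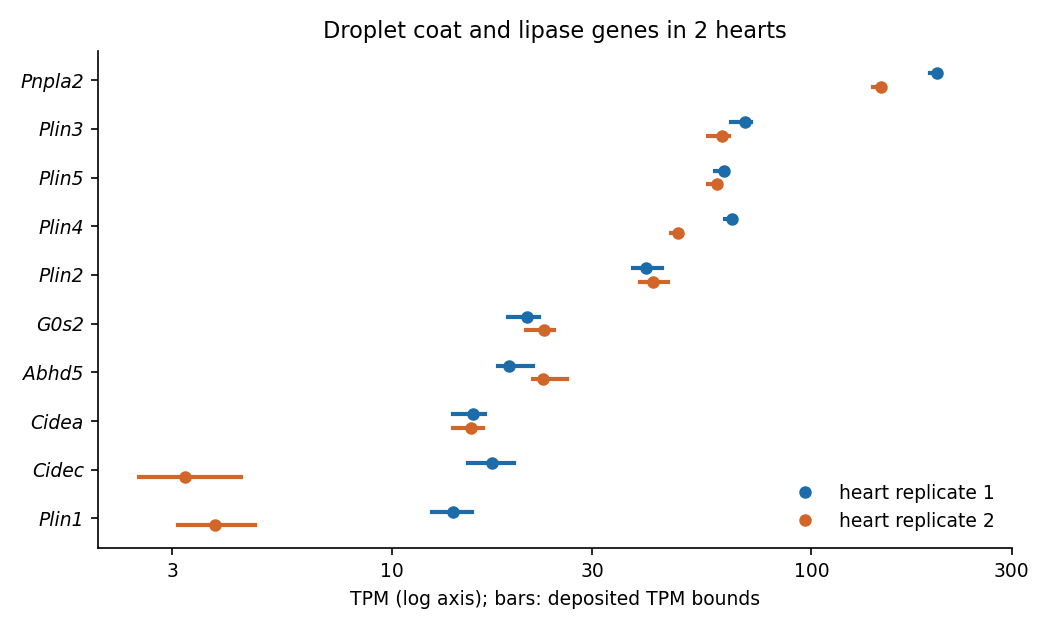
TPM of each of the 10 genes (rows, ordered by mean) in heart 1 (blue) and heart 2 (orange) on a log axis; points are the deposited estimates and bars the deposited TPM bounds, whose level is not stated. The points of Plin5 lie at 61.9 and 59.4 TPM, whereas those of Cidec lie at 17.3 and 3.22 and those of Plin1 at 13.96 and 3.79.

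All 10 genes were at 1 TPM or more in both hearts, as were 10906 of the 22028 protein-coding genes. Pnpla2 was the highest by mean TPM, followed by Plin3, Plin5, Plin4, Plin2, G0s2, Abhd5, Cidea, Cidec and Plin1. Of the 9 pairs of neighbours in that order, the values of the 2 hearts overlapped in 5: Plin3 with Plin5, Plin5 with Plin4, G0s2 with Abhd5, Cidea with Cidec, and Cidec with Plin1. The order of those neighbours does not hold beyond the spread between the hearts. Among protein-coding genes ranked by mean TPM, Pnpla2 was at place 303, Plin5 at 820 and Plin1 at 5135.

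Plin5 (chr17:56111601-56117596, minus strand) had 3820 counts in heart 1 and 3942 in heart 2. Its log2 ratio between hearts was -0.09 (-0.16 to -0.03). Set against Myh6 in the same heart, Plin5 stood at a log2 TPM ratio of -7.15 in heart 1 and -7.12 in heart 2, and the change in that ratio by counts was 0.03 (-0.04 to 0.09). The interval of that change spanned 0. Myh6 itself had a log2 ratio between hearts of -0.12. The median over the 10 heart-muscle markers was 0.06, with 2 of them below 0. No other heart-muscle marker was used as reference, so the change holds for Myh6 only.

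Plin1 (chr7:79720218-79732903, minus strand) had 787 counts in heart 1 and 223 in heart 2. Its log2 ratio was -1.96 (-2.18 to -1.74), a level 3.89 times higher in heart 1, and 24 of the 12910 genes compared lay lower. Cidec (chr6:113424634-113435760, minus strand), which binds Plin1 in fat cells and drives droplets to fuse into the large droplet of white fat, had 748 counts in heart 1 and 132 in heart 2. Its log2 ratio was -2.64 (-2.92 to -2.37), 6.24 times higher in heart 1, and 10 of the genes compared lay lower. The 2 fat-cell forms did not move by quite the same factor: Plin1 was 0.81 times Cidec by TPM in heart 1 and 1.18 times in heart 2, and the change by counts was 0.68 on the log2 scale (0.33 to 1.04).

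The other perilipins were nearer to Plin5 in level and in ratio. Plin3 (chr17:56277476-56292873), the broadly expressed form that moves between cytosol and droplet, stood at 69.5 and 61.2 TPM (65.4 ± 5.91), with a log2 ratio of -0.25 (-0.31 to -0.19). Plin4 (chr17:56100591-56109803), known from fat cells and muscle and built around a long stretch of repeats, stood at 64.7 and 48.2 TPM (56.4 ± 11.6), with a log2 ratio of -0.46 (-0.50 to -0.42). Plin2 (chr4:86648386-86670060), the form of most non-fat cells that is degraded when not bound to lipid, stood at 40.4 and 42.0 TPM (41.2 ± 1.16). Heart 1 was higher for Plin3 and Plin4, while the Plin2 ratio of 0.07 (-0.03 to 0.17) spanned 0. Plin4 did not share the ratio of Plin1: Plin4 was 4.63 times Plin1 in heart 1 and 12.7 times in heart 2, a 2.83-fold change by counts (1.28 to 1.72 on the log2 scale). Plin4 and Plin5 are neighbours on chromosome 17, on the same strand and 1797 bases apart, with Plin5 upstream. Plin5 was 0.96 times Plin4 by TPM in heart 1 and 1.23 times in heart 2.

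As shares of the summed perilipin TPM, which was 250 in heart 1 and 215 in heart 2, Plin3, Plin5 and Plin4 each took close to the same part and Plin1 the least. Plin3 took 27.8% and 28.5%, Plin4 25.8% and 22.5%, and Plin5 24.7% and 27.7%. Plin2 took 16.1% and 19.6%. Plin1 took 5.57% in heart 1 and 1.77% in heart 2. The near equality depends on the quantification. By the second, Plin3 took 33.2% and 33.3%, Plin4 23.3% and 20.8%, and Plin5 20.8% and 23.8%.

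Cidea and Cidec behaved differently although both belong to the CIDE family of droplet fusion proteins. Cidea, best known from brown fat, stood at 15.6 TPM in heart 1 and 15.5 in heart 2 (15.6 ± 0.099), with 519 and 553 counts and a log2 ratio of -0.05 (-0.22 to 0.13). The ratio of Cidea to Cidec was 0.90 in heart 1 and 4.81 in heart 2, a change by counts of 2.59 (2.27 to 2.92) on the log2 scale. Cidea took 47.0% of the CIDE sum in heart 1 and 81.9% in heart 2. Cideb, the liver form, was at 0.25 and 0.20 TPM. The brown-fat marker list spanned a wide range beside Cidea: 6 of the 11 markers found were at 1 TPM or more in both hearts, and their summed level was 1280 TPM in heart 1 and 1330 in heart 2. Most of that sum was Cox7a1, a respiratory chain subunit of both muscle and brown fat, at 910 and 983 TPM, and Cpt1b (190.3 and 203), Kcnk3 (81.6 and 89.6) and Ppargc1a (89.9 and 47.4) also lay above Cidea. Ucp1, the uncoupling protein of brown fat, was at 4.83 and 3.65 TPM, Elovl3 at 0.18 and 0.08 and Zic1 at 0.01 in both hearts. Against Myh6, the only heart-muscle marker used as reference, the change in Cidea was 0.07 (-0.10 to 0.25), an interval that spanned 0, as for Plin5.

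**Figure D2:**
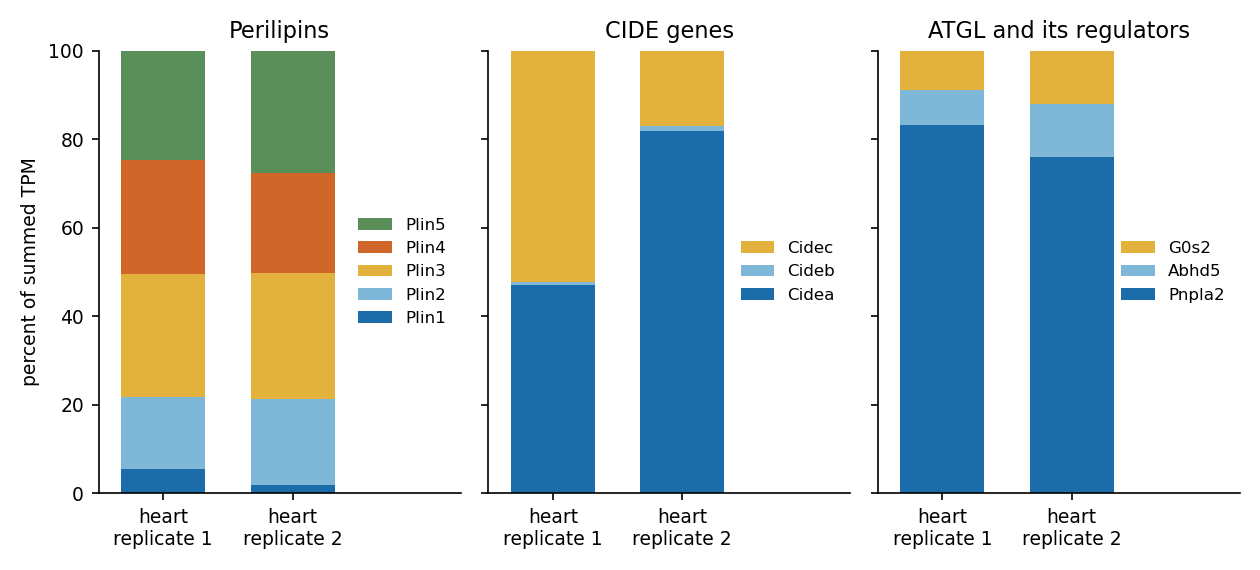
Percent of summed TPM taken by each gene within the perilipins, the CIDE genes and ATGL with its regulators, in heart 1 and heart 2; each bar adds to all of its family's TPM. Cidec takes 52.2% of the CIDE bar in heart 1 and 17.0% in heart 2, whereas Plin5 takes 24.7% and 27.7% of the perilipin bar.

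Pnpla2 (chr7:141455198-141460743, plus strand) stood at 199 TPM in heart 1 and 146 in heart 2 (173 ± 37.3), with 11389 and 8934 counts and a log2 ratio of -0.49 (-0.53 to -0.45). Its activator Abhd5 (chr9:122351608-122381524, plus strand) was at 19.0 and 22.97 TPM (20.995 ± 2.79), with a log2 ratio of 0.12 (0.02 to 0.23). Its inhibitor G0s2 (chr1:193272161-193273217, minus strand) was at 20.99 and 23.1 TPM (22.0 ± 1.47), with a log2 ratio of 0.10 (-0.07 to 0.27). With all transcript models counted, the lipase was thus the higher message, at 9.49 and 6.35 times G0s2 and at 10.5 and 6.38 times Abhd5 in hearts 1 and 2. The margin over G0s2 was smaller for models annotated as coding, which held 77.4 and 59.6 TPM of Pnpla2. For Abhd5 they held 8.16 and 8.82 TPM. From heart 1 to heart 2 the ratio to G0s2 changed by -0.59 (-0.76 to -0.42) on the log2 scale by counts, and the ratio to Abhd5 by -0.61 (-0.73 to -0.50). Hormone-sensitive lipase Lipe, which acts after ATGL on diglyceride, was at 21.5 and 14.8 TPM, so that Pnpla2 was 9.28 and 9.88 times Lipe.

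For Pnpla2 and Abhd5, most of the level was assigned to transcript models that GENCODE annotates as nonsense-mediated decay targets, which are spliced forms with an early stop codon. Pnpla2-201 took 60.2% of the gene's transcript TPM in heart 1 and 57.7% in heart 2, and models annotated as coding took 38.9% and 40.7%, or 77.4 and 59.6 TPM. Abhd5-201 took 52.2% and 57.1%, and coding models 42.9% and 38.4%. Pnpla2-201 carries an exon of 82 bases at chr7:141456568-141456649 that the coding Pnpla2-203 lacks. The reading frame stops in that exon after 70 codons, against 486 codons in Pnpla2-203. Abhd5-201 carries an exon of 50 bases at chr9:122363815-122363864 that the longest coding model lacks, and its frame stops in the next exon after 38 codons, against 351. The transcript sequence from the first base of the added exon to the stop, in capitals, is shown for each, from the GENCODE M21 transcripts (plus strand, mm10).
Pnpla2-201: gtgatcttgagcagctagaacaaTGA
Abhd5-201: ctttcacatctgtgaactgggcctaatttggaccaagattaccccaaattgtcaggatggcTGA
In the second quantification the models annotated as decay targets took 60.0% and 57.5% for Pnpla2 and 55.3% and 59.9% for Abhd5. The share of the leading model itself was lower there, at 50.7% and 49.6% for Pnpla2-201 and 44.8% and 38.8% for Abhd5-201. These shares are estimates from reads that fit several models, and no count of reads across the added exons was used here.

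Between the hearts, 2 of the 10 genes, Plin1 and Cidec, were lower by 2-fold or more in heart 2, and 0 were higher by 2-fold or more. Of the 12910 genes compared, 0.906% were lower and 0.31% higher by that fold. The genes were chosen on this ratio, so nothing is read from the count. The other 8 had log2 ratios from -0.49 (Pnpla2) to 0.12 (Abhd5), beside a range of -0.44 to 0.37 for the central 90 percent of all genes compared. Pnpla2 and Plin4 (-0.46) lay just below that range. The median over the 10 was -0.17, beside 0.01 over all genes compared. The signs of Plin2, Cidea, Abhd5 and G0s2 depend on the scaling: with spike-in scaling, which shifts the median of all genes to -0.13, Plin2 was at -0.07, Abhd5 at -0.02 and G0s2 at -0.04, and Cidea reached 0.00 with scaling by total counts.

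Fat-cell markers were lower in heart 2, as Plin1 and Cidec were, but by factors that differed widely. The log2 ratios of those compared ran from -3.02 (Cfd) to -0.50 (Scd1), with Fasn, Pparg, Thrsp and Lipe between -0.79 and -0.63. Of the 14 markers, 12 could be compared and all 12 were lower in heart 2, 7 of them by 2-fold or more, with a median log2 ratio of -1.83, and their summed level was 484 TPM in heart 1 and 134 in heart 2. None of the 14 was at 0 counts in either heart, although leptin (Lep) was only at 0.17 and 0.11 TPM. Adipoq, which encodes the fat-cell hormone adiponectin, was at 25.0 and 4.05 TPM, with a log2 ratio of -2.78 (-3.06 to -2.51), and Cfd, adipsin, at 174 and 22.1 TPM, with -3.02 (-3.14 to -2.90). Cidec over Adipoq was 0.69 in heart 1 and 0.80 in heart 2, a change by counts of 0.14 (-0.25 to 0.53). Plin1 over Adipoq was 0.56 and 0.94, a change of 0.82 (0.47 to 1.18). The interval for Cidec spanned 0, whereas Plin1 differed less between the hearts than Adipoq did. Of the 14 markers, 3 also stand in another list used here (Adrb3, Lipe and Pparg). The part of fat cells in the levels of Plin1 and Cidec was not tested.

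**Figure D3:**
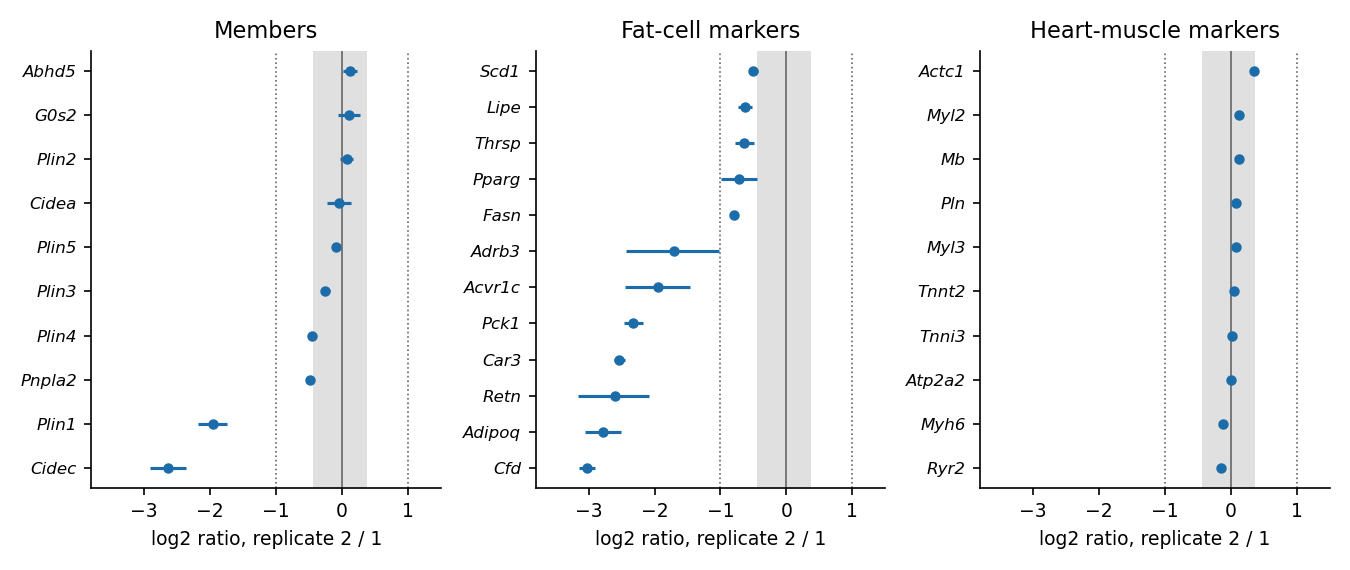
Log2 ratio of heart 2 over heart 1 by TMM-scaled counts for the 10 genes, for 12 fat-cell markers and for 10 heart-muscle markers, with 95% intervals for counting error; the grey band spans -0.44 to 0.37, the central 90 percent of all 12910 genes, and dotted lines mark 2-fold. Cidec (-2.64) lies between the markers Adipoq (-2.78) and Car3 (-2.53), Plin1 (-1.96) lies beside Acvr1c (-1.95), and the other 8 genes lie between -0.49 and 0.12.

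Markers of red cells and platelets differed between the hearts as well. The summed red-cell markers were at 46570 TPM in heart 1 and 23415 in heart 2. All 7 were lower in heart 2, with log2 ratios from -1.08 to -0.88 and a median of -0.97, and 3 of them passed 2-fold. The summed platelet markers were at 35.4 and 21.4 TPM. All 3 platelet markers compared were lower in heart 2, 1 of them by 2-fold or more. Heart-muscle, endothelial and fibroblast markers gave 0 genes past 2-fold out of 10, 8 and 8. The macrophage list gave 1 of 7 lower, Lyz2 (-1.01), and the brown-fat list 1 of 8, Adrb3 (-1.70), while smooth-muscle markers gave 0 of 5. Of the 8 skeletal-muscle markers only Acta1 could be compared, and it was higher in heart 2 (1.25), at 93.0 and 227 TPM. The list as a whole was low, with a median of 0.36 TPM. Myog was at 0 counts in both hearts and Mylpf at 1.45 and 1.04 TPM, so Acta1 does not stand for the list. The part of blood in the 10 genes' ratios was not tested.

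The remaining genes of the droplet pathway that were compared stayed within 2-fold between the hearts, apart from 1 in the PPAR list. Of the 9 neutral lipases listed, 8 were at 1 TPM or more in both hearts and 0 of the 8 compared passed 2-fold, with a median log2 ratio of -0.19. The log2 ratios of the 8 ran from -0.63 (Lipe) to 0.13 (Mgll). The highest was Lpl, the lipoprotein lipase of the capillary wall, at 1085 and 1026 TPM, and the lowest was the carboxylesterase Ces1f, at 1.12 and 0.17. Ces1f was not compared because its mean CPM was below 1. It had 55 counts in heart 1 and 11 in heart 2, with an interval for the log2 ratio of -3.54 to -1.51. With no filter, 1 of these lipases was lower in heart 2 by 2-fold or more. Of 15 triglyceride synthesis genes, 13 were at 1 TPM or more and 0 of 13 passed 2-fold, with a median of -0.09. Acsl1, which activates long-chain fatty acids, was the highest at 296 and 301 TPM, and Mogat1 was listed at 0 in both. Of 16 genes of droplet assembly and other coats, 13 were at 1 TPM or more and 0 of 13 passed 2-fold, with a median of -0.04. Fitm1, which helps droplets form in muscle, was the highest at 65.7 and 76.7 TPM, and Hsd17b13 and Mettl7b were the lowest, each at a mean of 0.015 TPM. Of 16 PPAR target and PPAR genes, 1 passed 2-fold, the pyruvate dehydrogenase kinase Pdk4, at 501 and 250 TPM with a log2 ratio of -1.004. That call sits at the threshold: 0 of these genes passed with DESeq2 size factors, with total counts or in the second quantification, and 2 passed with spike-in scaling. The highest of these was the fatty acid binding protein Fabp3, at 1698 and 1866 TPM, and the lowest Pparg, at 5.34 and 3.91. Pnpla2 thus lay above all but Lpl of the neutral lipases listed.

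The protein-coding genes nearest to Plin5 and to Plin1 were found by the distance between log2(TPM + 0.1) values over the 2 hearts, which gives likeness in level only. For Plin5 they were Akt2 (61.8 and 59.3 TPM, distance 0.0030), Iscu (61.3 and 58.8, distance 0.023) and Rps23 (60.6 and 58.6, distance 0.038). For Plin1 they were Cdo1 (15.2 and 4.07 TPM, distance 0.16), Cidec (distance 0.39) and Fnip2 (11.5 and 4.89, distance 0.45). The second of the genes nearest to Plin1 was another of the 10. Plin1 and Cidec were selected on these levels and on their contrast between hearts, so nothing is read from that nearness.

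The annotation lists 42 transcripts for the 10 genes, and Cidea and G0s2 have 1 each. In the other 8 genes the leading transcript was the same in both hearts in the first quantification. For Plin5 it was Plin5-201, with 61.5% in heart 1 and 58.5% in heart 2. Plin5-201 and Plin5-202 have the same coding length of 1389 bases, and their starts lie 298 bases apart, so that Plin5-202 begins inside what Plin5-201 reads as its first intron. The second quantification gave Plin5-201 91.5% and 96.6%, so the split between the starts depends on the quantification. Plin4-201 and Plin4-202 differ in sequence by 1 base at the first position, and the share of Plin4-202 was 99.7% and 99.6% in the first and 63.1% and 50.2% in the second quantification. Cidec-202 took 73.2% and 65.8% of Cidec in the first quantification, and 19.3% and 54.9% in the second, where an incomplete model led in heart 1 with 42.2% and Cidec-202 led in heart 2. The leading model of Plin1 took 49.5% and 41.4% in the first quantification. In the second it led in heart 1 with 41.1%, while in heart 2 it took 33.7% against 34.5% for an incomplete model.

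**Figure D4:**
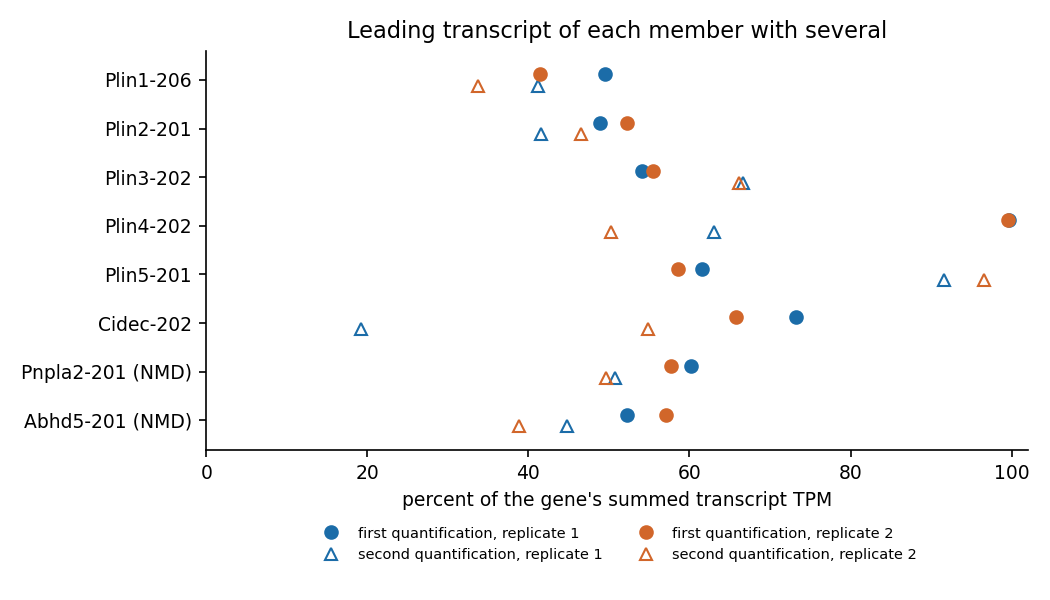
Percent of each gene's summed transcript TPM taken by its leading transcript, for the 8 genes with several; filled circles are the first and open triangles the second quantification, blue heart 1 and orange heart 2, and NMD marks models annotated as nonsense-mediated decay targets. The triangles of Plin4-202 and Plin5-201 lie far from their circles in both hearts. For Cidec-202 this holds in heart 1 (73.2% and 19.3%) more than in heart 2 (65.8% and 54.9%). Abhd5-201 lies at 57.1% and 38.8% in heart 2.

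Transcript models also set the level. For Plin3, 54.1% and 55.5% of transcript TPM went to Plin3-202, an incomplete model of 562 bases. If all counts of each gene are given to its longest complete coding transcript, Plin3 falls to 34.2 ± 3.63 TPM and Pnpla2 to 119 ± 26.4, while Plin5 stays at 60.7 ± 1.75. On that scale Plin5 is second to Pnpla2, and Plin5 is 6.99 and 25.5 times Plin1 and 4.39 and 25.6 times Cidec in hearts 1 and 2. Parts of 4 of the genes overlap a gene on the opposite strand. G0s2 lies inside Lamb3 (4.43 and 4.91 TPM), Plin4 shares 17 bases with Hdgfl2 (13.5 and 13.0 TPM), and Abhd5 and Cidea overlap noncoding genes at 0.00 and at 0.28 and 0.26 TPM. Whether the counting used strand is not given in the sources used here.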

How the data were processed

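Estimated counts and TPM per gene, with the TPM signal bounds, were deposited by the authors for each heart, and the percent of each gene's abundance per transcript was deposited by the authors in a transcript table. These derive from an alignment to the transcriptome (mm10, GENCODE M21). A second transcript table of estimated counts and TPM derives from a read file. Both statements are per the text files the authors deposited. The column names are those that RSEM and kallisto write, and which tools and settings were used is not stated in those sources. The level of the deposited TPM bounds is not stated.

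Members and lists were chosen with earlier results of these data known. Totals were 38447822 and 40891189 counts with 97 spike-ins. Spike-ins and 26248 transfer RNA rows (3.00 and 1.85 counts) stayed out of library sizes. Counts rounded to whole numbers were scaled by TMM factors of 0.982 and 1.02 (edgeR 4.0.16, R 4.3.3). Genes with a mean CPM of at least 1 were compared, and called at 2-fold. Intervals of single-gene ratios are exact binomial at 95% (scipy 1.17.1). Those of a pair's change by counts are 95% intervals of a conditional odds ratio, the pair's count ratio in heart 2 over that in heart 1. Both kinds cover counting error only, since reads are not independent molecules, and replace no replicate test. The limit set by a count of 0 was 3 counts, which is 0.0784 and 0.0738 CPM. Pairs used log2(TPM + 0.1), which understates ratios over low genes. Of 137 list symbols, 136 were found. Genes named were the 10 members, the highest, lowest and 2-fold changed genes of each of the 4 droplet pathway and PPAR lists, and the 3 nearest to Plin5 and Plin1. Adipoq, Myh6 and Lipe entered as pair partners. Other marker genes and Cideb were outside this rule and named after their values were seen. DESeq2 1.42.0 size factors, total and spike-in scaling, TPM ratios, posterior means, other pseudocounts, no filter and the second quantification were alternatives. The TMM-scaled ratio between hearts was tested on simulated counts, and the sequence and transcript-model steps were not.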

Additional observations from a re-analysis of the deposited data

How the results depend on the processing

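The log2 ratio of Plin5 over Plin1 (3.04) ranged from 2.79 with the second quantification to 3.70 with the longest coding transcript, an alternative chosen after seeing the data, and from 2.14 to 3.94 with either heart left out. That over Cidec (3.00) ranged from 2.53 to 3.37, and from 1.83 to 4.16 with either heart left out. Between the hearts, Plin1 lay between -2.10 and -1.88 and Cidec between -2.79 and -2.43 under every scaling and quantification run, and both were the only genes of the 10 past 2-fold in each. Plin5 moved from -0.09 to -0.24 with spike-in scaling, which shifts the median of all genes to -0.13. Of all genes past 2-fold, 25.5% were higher in heart 2, against 14.2% with spike-in scaling and 44.3% with no filter (2704 lower, 2154 higher), and the deposited TPM ratio gave 67 higher in place of 40. Of the 9 genes with a promoter, 0 held the AGGTCA pair at 1 mismatch. The second quantification gave TPM 1.09 to 1.59 times the first for the 10 genes. No paired analysis was possible because there is 1 group. Leaving out a heart gives no ratio between hearts, restriction to coding models gives no share for the leading Pnpla2 and Abhd5 models, and protein features were not run. Plin1 and Cidec rest on 223 and 132 counts in heart 2.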

Other observations

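Of the 16 PPAR target and PPAR genes, 10 had a log2 ratio below 0. Several of these were lower in heart 2 by less than 2-fold. The coactivator Ppargc1a was at 89.9 and 47.4 TPM in hearts 1 and 2, with a log2 ratio of -0.91 (-0.96 to -0.86). Angptl4, an inhibitor of lipoprotein lipase, was at 11.4 and 7.77 (-0.63) and the thioesterase Acot1 at 22.8 and 16.9 (-0.54). The related coactivator Ppargc1b went the other way, at 9.60 and 12.28 TPM, with a log2 ratio of 0.30 (0.19 to 0.42). Some genes of the same list differed little: Cpt1b, the muscle carnitine palmitoyltransferase, was at 190.3 and 203 TPM (0.06), and the fatty acid transporter Cd36 at 537 in both hearts (-0.06). These genes were chosen after their values were seen. The skeletal actin Acta1 was higher in heart 2, at 93.0 and 227 TPM (1.25).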
